A study of Arabidopsis thaliana with 9 samples.

Results

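Freshly harvested, mature dry seeds of NILDOG1 were compared with those of dog1-1, the genotypes of Arabidopsis thaliana that the labels place at opposite ends of DOG1 expression. The comparison holds 6 of the 9 arrays of the study, 3 for each genotype, and was read across 22746 probe sets of an Affymetrix expression array, 64 control probe sets having been left out. In NILDOG1, a near isogenic line carrying DOG1 from the accession Cvi, the DOG1 level is labelled strong. In the dog1-1 mutant it is labelled absent. The remaining 3 arrays come from Ler, the wild type, where it is labelled low, and Landsberg erecta is given as the genetic background of all 3 genotypes. Seeds were taken at the end of maturation, plants were grown in randomized complete blocks, and each replicate was a bulk of 8 plants. A near isogenic line also carries whatever Cvi sequence surrounds DOG1, and the extent of that segment is not given in the sources used here. Differences due to that segment and to DOG1 itself cannot be told apart.

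DOG1 (DELAY OF GERMINATION 1, AT5G45830) is a seed protein whose level at harvest is known to set how deep the dormancy of Arabidopsis seeds is. Seeds that lack it germinate without a period of dry storage. During late maturation an embryo stores protein and oil, builds up chaperones and LEA (late embryogenesis abundant) proteins that protect it while it dries, and shuts down photosynthesis and cell expansion. Its dry seed then holds stored messenger RNA, which is what the arrays measured. No probe set carries the name DOG1 in this annotation, so its level was not analysed here and offers no check of the genotype labels. The storage genes that mark mature seeds were bright in both genotypes: PAP85 (AT3G22640), a vicilin-type storage protein gene, stood at 13.50 ± 0.06 in NILDOG1 and 13.54 ± 0.03 in dog1-1 (log2 signal, SD, n = 3 each).

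All levels below are log2 signals as normalized by the authors, and all changes are NILDOG1 minus dog1-1 on that scale, where 1 is a 2-fold difference. Errors of levels are SDs over 3 arrays and errors of changes are standard errors (SE). Adjusted p-values are those of limma with Benjamini-Hochberg adjustment over all 22746 probe sets, and a gene is said to have risen or fallen in NILDOG1 where that value is under 0.05. Both words are relative to dog1-1 and do not by themselves say which of the 2 genotypes differs from Ler. Among the 24 largest changes named below, the Ler mean lay nearer to NILDOG1 than to dog1-1 for all but AT5G45540. For AT5G28110 it stood between them. Many of these changes thus set dog1-1 apart from both other genotypes. This did not hold for every called gene, as TRM28 and CYP78A9 below show. Contrasts with Ler were not tested here. P-values measure the spread among these bulks of plants, with a precision limited by the small number of arrays. A mean of at most 2.56, the highest value of the control probe sets for a bacterial gene absent from the sample (TrpnX), is called background. Seeds were measured whole, so that fewer cells of a type and less RNA per cell cannot be told apart. Medians of single arrays were 3.51 to 3.59, Pearson correlations over all probe sets were 0.992 to 0.996 within a genotype, and between NILDOG1 and dog1-1 they were 0.977 to 0.983. They were 0.990 to 0.995 between NILDOG1 and Ler, and 0.976 to 0.983 between dog1-1 and Ler. The arrays of dog1-1 replicate 3 and Ler replicate 1 stood apart on the control probe sets. Their 25S ribosomal RNA signals were 8.04 and 7.33 (9.86 to 11.25 in NILDOG1, and up to 11.88 on the other dog1-1 and Ler arrays), and their mean hybridization controls were 8.81 and 9.57, the lowest and highest of the 9 arrays. The difference between the 3' and 5' ubiquitin control probe sets, a sign of RNA integrity, ran from -0.22 to -0.14 in NILDOG1 and from -0.54 to -0.27 in dog1-1. The same difference overlapped for actin, at 0.71 to 0.92 in NILDOG1 and 0.65 to 1.29 in dog1-1. It also overlapped for GAPDH, at 0.07 to 0.34 in NILDOG1 and 0.08 to 0.27 in dog1-1. The part of the ubiquitin difference in the results was not tested.

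Of the 22746 probe sets, 2835 passed the threshold (12.5%), 1124 of them higher (4.94%) and 1711 lower (7.52%) in NILDOG1. A change of at least 2-fold was reached by 258 of the higher and 523 of the lower ones (781 in all, 3.43%), and one of at least 8-fold by 12 and 28. Without adjustment 5377 probe sets had a p under 0.05. The arrays of both genotypes did not overlap for 6151 probe sets (27%), with NILDOG1 above for 3282 and below for 2869. Of the 2835 that passed, 2802 did not overlap, so a lack of overlap noted below for a called gene adds little to its call. Without dog1-1 replicate 3 the calls numbered 2064, of which 765 were higher and 1299 lower, and without Ler replicate 1 they numbered 3060. The hybridization controls averaged 9.12 to 9.27 on the NILDOG1 arrays and 8.81 to 9.14 on the dog1-1 arrays. Centring each array on them moved the median change of all probe sets to -0.15, from 0.036 as deposited. The calls then numbered 2504, 430 higher (17.2%, against 39.6% as deposited) and 2074 lower. After that centring, 426 of the 1124 rises and 1685 of the 1711 falls still passed. Smaller rises are therefore relative to the centre that the deposited normalization sets, and genes named below whose call ends under that centring are marked as such.

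**Figure D1:**
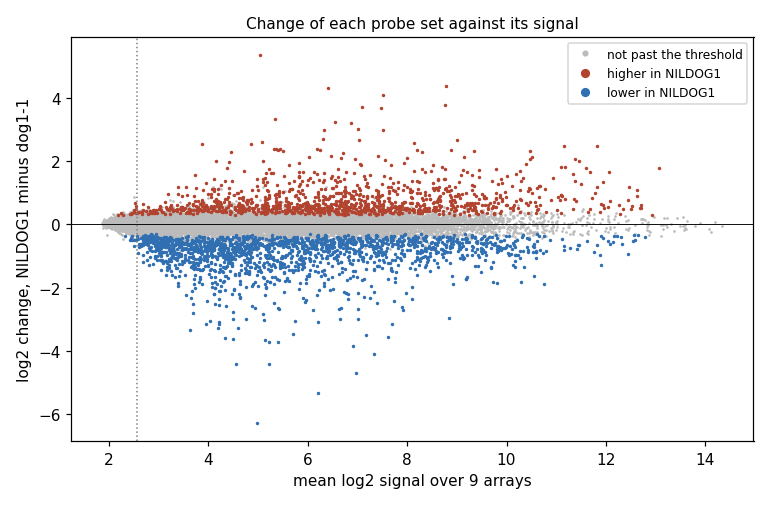
Change of each of 22746 probe sets (log2, NILDOG1 minus dog1-1, vertical) against its mean log2 signal over 9 arrays (horizontal), with 1124 probe sets higher in NILDOG1 in red, 1711 lower in blue, the rest grey, and background (2.56) as a dotted line. Falls crowd the dimmer end of the range, and rises reach up to the brightest signals.

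A single gene of the reference gene table could be given to 13484 of the probe sets (59.3%), and these stand for 13333 genes. Among them 637 rose (4.78%) and 775 fell (5.81%), 366 changed at least 2-fold (2.75%), and the calls had medians of 0.60 for the rises and -0.73 for the falls. The median change over all 13333 genes was 0.042. Rises and falls differed in how bright the genes were. Of 4634 genes with a mean signal between 2.56 and 4, 1.55% rose and 3.97% fell, and of 2309 genes between 4 and 6, 7.49% rose and 12% fell. Between 8 and 10 the shares were 15.9% and 12.6% of 799 genes, and between 10 and 12 they were 26.8% and 13.1% of 153 genes. Of 3234 genes with a mean of at most 2.56, 0.216% rose and 0.124% fell. Genes above 8 thus passed more often as higher than as lower in NILDOG1, and those between 2.56 and 6 more often as lower, as counts with no test of the difference. By chromosome, the share that rose ran from 4.22% on chromosome 2 to 5.55% on chromosome 5, and the share that fell from 5.32% on chromosome 4 to 6.36% on chromosome 1. Around DOG1, from AT5G44000 to AT5G47500, 14 of 182 genes rose (7.69%) and 10 fell (5.49%).

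The largest rise was that of AT5G28110, listed as a pseudogene on chromosome 5. Its signal was 7.99, 7.59 and 7.31 in NILDOG1, against 2.24, 2.09 and 2.47 in dog1-1. All dog1-1 arrays were at background, so that NILDOG1 was at least 33.7-fold higher (adjusted p = 1.24e-08), with Ler at 5.25 ± 0.32. Its probe set is of a class whose probes can also match other genes. AT2G34740, a gene of the PP2C family of protein phosphatases, had 10.35, 10.03 and 10.49 in NILDOG1, against 5.67, 6.28 and 5.77 in dog1-1. The groups were far apart, and the change was 4.38 (SE 0.17, 20.8-fold, adjusted p = 2.41e-08). For AT1G27030 the arrays read 8.08, 7.97 and 8.09 in NILDOG1, against 3.66, 3.50 and 3.97 in dog1-1, a 20.2-fold rise (4.34, SE 0.12, adjusted p = 2.8e-09). Ler stood at 10.18 ± 0.22 for AT2G34740 and 7.46 ± 0.02 for AT1G27030.

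Genes for small heat shock proteins, chaperones that hold unfolding proteins in soluble form, made up 3 of the 12 largest rises. HSP17.6C (AT1G53540) had 10.16, 9.99 and 10.27 in NILDOG1, against 6.43, 6.40 and 6.26 in dog1-1 (3.78, SE 0.11, 13.7-fold, adjusted p = 2.8e-09). HSP17.6B (AT2G29500) had 8.42, 8.42 and 8.53 in NILDOG1, against 5.84, 4.16 and 4.23 in dog1-1 (3.71, SE 0.33, adjusted p = 1.34e-05). Here dog1-1 replicate 1 lay well above the other dog1-1 arrays, and still below every NILDOG1 array. ATHSP22.0 (AT4G10250), a small heat shock protein of the endomembrane system, had 6.83, 6.57 and 6.90 in NILDOG1, against 4.24, 3.06 and 2.95 in dog1-1 (3.35, SE 0.26, adjusted p = 4.43e-06). The same dog1-1 array was again the highest of its group. HSP18.5 (AT2G19310), named after its value was seen, rose as well, at 10.20 ± 0.17 in NILDOG1 and 7.87 ± 0.36 in dog1-1 (2.33, SE 0.16, adjusted p = 1.48e-06).

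The other 6 of the 12 largest rises, for which the gene table gives no symbol, ran from 3.26 for AT1G55440 to 2.55 for AT4G23493 and AT5G45540. AT1G12130 was at 8.54 ± 0.14 in NILDOG1 and 5.54 ± 0.14 in dog1-1. AT1G26800 was at 9.94 ± 0.05 in NILDOG1 and 7.27 ± 0.06 in dog1-1, and AT4G32870 at 7.21 ± 0.53 in NILDOG1 and 4.52 ± 0.48 in dog1-1. Among these, AT5G45540 lies closest to DOG1 in locus order. Its arrays read 6.37, 5.43 and 6.05 in NILDOG1, against 3.35, 3.35 and 3.50 in dog1-1 (SE 0.21, adjusted p = 6.96e-06), while Ler was at background (2.30 ± 0.32).

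Dehydrins, hydrophilic LEA-type proteins that bind water and metal ions in drying or cold cells, gave the largest falls of probe sets with a single gene. AT4G38410 had 2.97, 2.76 and 3.09 in NILDOG1, against 6.79, 7.81 and 7.51 in dog1-1 (-4.43, SE 0.21, 21.6-fold lower, adjusted p = 7.1e-08). HIRD11 (AT1G54410) had 3.38, 3.72 and 3.71 in NILDOG1, against 7.69, 8.22 and 8.18 in dog1-1 (-4.43, SE 0.17, adjusted p = 1.97e-08). In both cases dog1-1 replicate 1 was the lowest of its group and still far above every NILDOG1 array. Ler was near NILDOG1, at 3.38 ± 0.13 and 4.04 ± 0.25.

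AT5G14450, a lipase-family gene, had 5.89, 6.21 and 5.68 in NILDOG1, against 9.34, 10.28 and 10.45 in dog1-1 (-4.09, SE 0.24, adjusted p = 4.05e-07). AT5G10120, a gene of the EIN3-like family of ethylene response factors, had 5.62, 5.63 and 5.26 in NILDOG1, against 9.19, 9.35 and 9.54 in dog1-1 (-3.85, SE 0.12, adjusted p = 6.01e-09). The cathepsin-like cysteine protease gene AT4G01610 had 6.35, 6.57 and 6.18 in NILDOG1, against 9.39, 10.24 and 10.20 in dog1-1 (-3.58, SE 0.20, adjusted p = 2.36e-07). In each case all NILDOG1 arrays lay below all dog1-1 arrays, which the rule for naming the largest changes requires. MT1C (AT1G07610), a metallothionein that binds metals through cysteines, had 6.29, 6.02 and 7.03 in NILDOG1, against 9.42, 9.65 and 9.73 in dog1-1 (-3.15, SE 0.23, adjusted p = 2.76e-06). STR18 (AT5G66170), a sulfurtransferase of the rhodanese family, had 4.09, 4.36 and 4.09 in NILDOG1, against 6.63, 7.80 and 7.18 in dog1-1 (-3.03, SE 0.22, adjusted p = 2.61e-06). The remaining 5 of the 12 largest falls carry no symbol: AT1G29980 fell by 3.29, AT5G59080 by 3.27, AT5G62350 by 3.08, and AT1G32860 and AT5G01210 by 3.06 each.

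**Figure D2:**
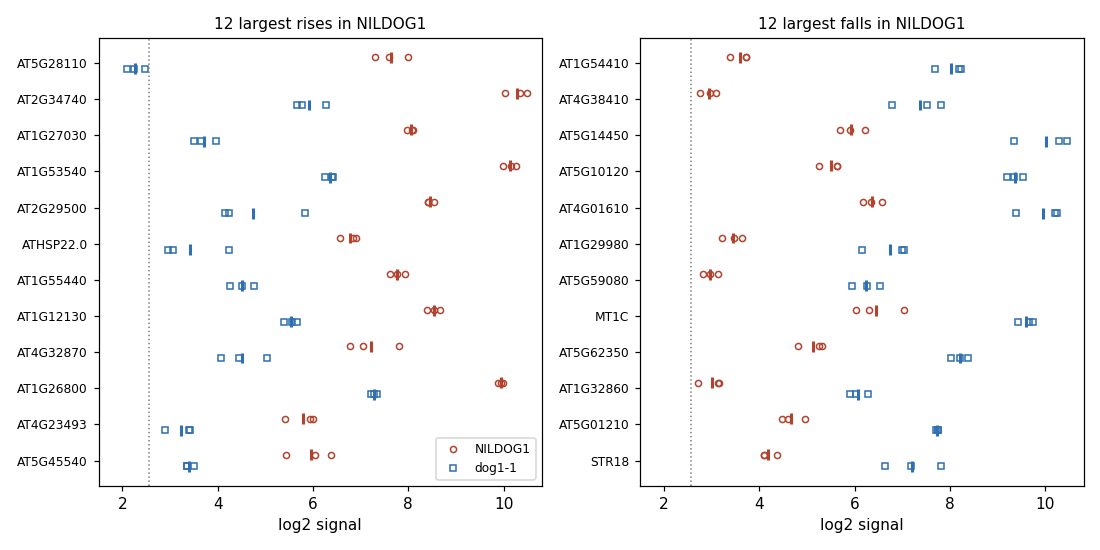
Log2 signals of the 12 largest rises (left) and 12 largest falls (right) with NILDOG1 arrays as red circles above dog1-1 arrays as blue squares, bars at the means of 3 arrays, and background dotted. Arrays that do not overlap between the genotypes were a condition for choosing these 24 genes. AT5G28110 is at background in dog1-1.

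Members of 60 function lists, 880 genes in all, were then read one role at a time. Of these 46 rose (5.23%) and 100 fell (11.4%), beside 4.78% and 5.81% of all 13333 genes. The lists were drawn up with results of these data known, so their shares describe the members and are no evidence of a direction. No member passed in 15 of the lists. Of the 197 genes past the threshold whose values were examined singly, 138 kept their call whichever of the 9 arrays was left out. The other 59 lost it without at least 1 array, the smallest adjusted p among them being 0.0093.

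The list of LEA proteins and dehydrins, which moved in both directions, held 13 measured genes: 3 rose (23.1%) and 4 fell (30.8%), and the median change of the list was -0.070 (0.042 over all genes). M17 (AT2G41260) had 11.92, 11.95 and 11.43 in NILDOG1, against 10.17, 10.07 and 9.65 in dog1-1 (1.80, SE 0.16, adjusted p = 1.23e-05). LEA4-5 (AT5G06760) had 13.02, 12.94 and 13.08 in NILDOG1, against 11.89, 12.22 and 11.65 in dog1-1 (1.09, SE 0.13, adjusted p = 0.000112). For both, every NILDOG1 array was above every dog1-1 array. LEA18 (AT2G35300) was the third riser, at 12.91 ± 0.07 in NILDOG1 and 12.30 ± 0.18 in dog1-1, a call that ended when arrays were centred on the hybridization controls. Besides HIRD11, COR47 (AT1G20440), a cold-induced dehydrin, fell, with 3.43, 3.43 and 3.41 in NILDOG1, against 5.56, 5.33 and 5.97 in dog1-1 (-2.20, SE 0.14, adjusted p = 7.37e-07). LEA26 (AT2G44060) was at 5.29 ± 0.16 in NILDOG1 and 6.61 ± 0.11 in dog1-1. LTI30 (AT3G50970), another dehydrin, was at 12.54 ± 0.12 in NILDOG1 and 12.88 ± 0.03 in dog1-1 (adjusted p = 0.0301), and lost its call without dog1-1 replicate 3.

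The following LEA genes outside the list were higher in NILDOG1. They were picked after their values were seen, so their shared direction is no evidence about such genes. The dehydrin gene AT4G38410, also outside the list, was lower in NILDOG1 (-4.43). AT3G22490 was at 12.03 ± 0.08 in NILDOG1 and 9.55 ± 0.11 in dog1-1 (2.48, SE 0.098, 5.56-fold, adjusted p = 2.41e-08). AT3G53040 was at 12.63 ± 0.10 in NILDOG1 and 10.97 ± 0.21 in dog1-1 (1.65, SE 0.13). The dehydrin gene AT4G39130 was at 8.60 ± 0.02 in NILDOG1 and 6.64 ± 0.34 in dog1-1 (1.96, SE 0.17, adjusted p = 8.37e-06), opposite in direction to AT4G38410 and HIRD11.

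Among 22 chaperones and folding helpers, 6 were higher in NILDOG1 (27.3%) and 2 lower (9.09%), while 14 stayed over the threshold, and the median change was 0.16. Hop3 (AT4G12400), which links Hsp70 with Hsp90, had 5.77, 5.92 and 6.08 in NILDOG1, against 4.49, 3.97 and 4.05 in dog1-1 (1.75, SE 0.25, adjusted p = 0.000419). Its relatives Hop1 and Hop2 did not pass. Fes1A (AT3G09350), a nucleotide exchange factor of Hsp70, was at 9.02 ± 0.04 in NILDOG1 and 8.04 ± 0.25 in dog1-1 (0.98, SE 0.13). HSA32 (AT4G21320), a protein of long-term heat acclimation, was at 9.33 ± 0.15 in NILDOG1 and 8.44 ± 0.25 in dog1-1 (0.90, SE 0.13). The prolyl isomerase gene ROF2 (AT5G48570) was at 4.01 ± 0.32 in NILDOG1 and 3.07 ± 0.16 in dog1-1, a call lost without dog1-1 replicate 3. BOB1 (AT5G53400), a NudC-type chaperone, was at 8.69 ± 0.07 in NILDOG1 and 8.27 ± 0.08 in dog1-1, a call lost after hybridization centring. The falls were those of Fes1B (AT3G53800), a relative of Fes1A, at 3.36 ± 0.11 in NILDOG1 and 4.63 ± 0.64 in dog1-1 (-1.27, SE 0.24), and of Hsp70-2 (AT5G02490), at 4.09 ± 0.17 in NILDOG1 and 4.80 ± 0.20 in dog1-1 (-0.71, SE 0.12).

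**Figure D3:**
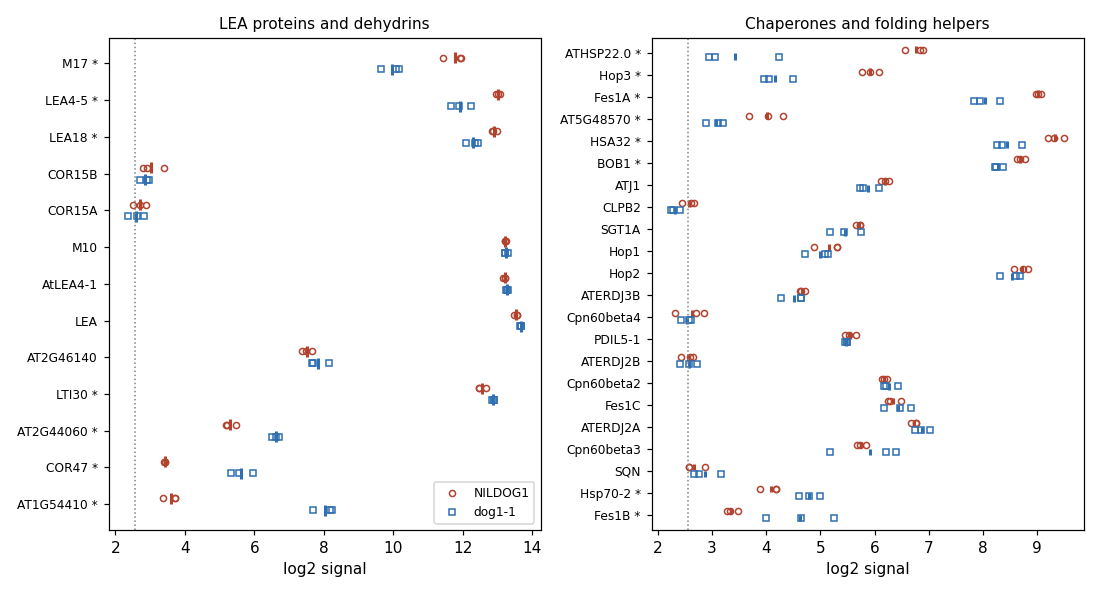
Log2 signals of 13 LEA genes (left) and 22 chaperone genes (right), NILDOG1 as red circles above dog1-1 as blue squares, ordered by change, with bars at means, background dotted and an asterisk where the gene passed the threshold. M17 and LEA4-5 are higher in NILDOG1, COR47 and HIRD11 (AT1G54410) are higher in dog1-1, and ATHSP22.0 and Hop3 lead the chaperones.

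Enzymes that detoxify aldehydes and peroxides were, where they passed, mostly lower in NILDOG1. Of 8 aldehyde dehydrogenases 0 rose and 4 fell (50%). ALDH3F1 (AT4G36250) had 5.42, 5.36 and 5.14 in NILDOG1, against 6.17, 6.92 and 6.88 in dog1-1 (-1.35, SE 0.18, adjusted p = 0.000288). ALDH11A3 (AT2G24270) was at 3.08 ± 0.24 in NILDOG1 and 4.09 ± 0.30 in dog1-1. ALDH10A8 and ALDH7B4 fell by 0.59 and 0.29, and the calls of both were lost without dog1-1 replicate 3, that of ALDH7B4 also after hybridization centring. Of 14 glutathione transferases, which join glutathione to toxic molecules, 1 rose and 4 fell (28.6%). GSTU20 (AT1G78370) had 2.68, 2.87 and 2.53 in NILDOG1, near background, against 4.09, 4.51 and 4.24 in dog1-1 (-1.59, SE 0.14, adjusted p = 8.71e-06). GSTL3 and GSTU16 fell by 0.87 and 0.47, and GSTU23, at background in NILDOG1, was at least 1.28-fold lower. GSTU28 (AT1G53680) was at 4.06 ± 0.06 in NILDOG1 and 3.64 ± 0.16 in dog1-1, a rise lost without dog1-1 replicate 3 and after hybridization centring. The GSTU23 call was also lost without that array.

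Among 15 genes of peroxidases and peroxide defence, 0 rose and 2 fell. The peroxidase gene PRXR1 (AT4G21960) had 7.07, 7.35 and 7.31 in NILDOG1, against 9.78, 9.24 and 9.81 in dog1-1 (-2.37, SE 0.15, 5.17-fold lower, adjusted p = 6.9e-07). GR1 (AT3G24170), a glutathione reductase, was at 7.21 ± 0.22 in NILDOG1 and 7.80 ± 0.05 in dog1-1. Of 13 thioredoxins and glutaredoxins, proteins that reduce disulfide bonds, ATHM2 and TRXF2 fell by 0.65 and 0.63. GRXC1 (AT5G63030) was higher, at 11.15 ± 0.05 in NILDOG1 and 10.68 ± 0.18 in dog1-1, until arrays were centred on the hybridization controls. MSRB6 (AT4G04840) was the 1 of 5 methionine sulfoxide reductases, which repair oxidized methionine, to pass: it was at 7.13 ± 0.41 in NILDOG1 and 7.85 ± 0.07 in dog1-1, and did not pass without dog1-1 replicate 3. Of 6 glyoxalases and alkenal reductases 0 passed, with a median change of 0.23 and AER (AT5G16970), an alkenal reductase, at 9.62 ± 0.10 in NILDOG1 and 9.28 ± 0.12 in dog1-1 (adjusted p = 0.0562).

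Genes for the photosynthetic apparatus encoded in the nucleus were the list with the most falls. Of 18 measured, 9 fell (50%) and 1 rose (5.56%), with a median change of -0.43 against 0.042 over all genes. RCA (AT2G39730), the activase of the carbon-fixing enzyme Rubisco, had 4.16, 4.56 and 4.31 in NILDOG1, against 5.66, 5.93 and 5.86 in dog1-1 (-1.47, SE 0.13, adjusted p = 1.11e-05). CURT1A (AT4G01150), which bends thylakoid membranes, had 4.87, 5.07 and 4.88 in NILDOG1, against 6.0, 6.46 and 6.82 in dog1-1 (-1.49, SE 0.20, adjusted p = 0.000254). The groups did not overlap for either gene.

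The antenna proteins of the LHCB4 family, which pass light energy to photosystem II, did not move together. LHCB4.3 (AT2G40100) was at 4.06 ± 0.28 in NILDOG1 and 5.13 ± 0.06 in dog1-1 (-1.07, SE 0.16), and LHCB4.2 (AT3G08940) at 5.89 ± 0.17 in NILDOG1 and 6.56 ± 0.27 in dog1-1 (-0.67, SE 0.14). LHCB4.1 (AT5G01530) had 9.13, 8.95 and 8.79 in NILDOG1, against 8.26, 8.08 and 8.07 in dog1-1 (0.82, SE 0.18, adjusted p = 0.0093), a rise whose call was lost after hybridization centring. The other falls were LIL3:2 by 0.89, SBPASE (a Calvin cycle phosphatase) by 0.78, PSBW by 0.66 and PSB27 by 0.35, and PSAN, at background in NILDOG1, was at least 1.21-fold lower. PSBW lost its call without dog1-1 replicate 3, and PSAN and PSB27 lost theirs without other single arrays. Without dog1-1 replicate 3 the list still counted 8 falls and 1 rise. Enzymes of chlorophyll synthesis named after their values were seen, CHLM (AT4G25080) and HEMB1 (AT1G69740), were at 4.15 ± 0.12 and 6.67 ± 0.09 in NILDOG1, against 4.88 ± 0.14 and 7.03 ± 0.06 in dog1-1. The HEMB1 call was lost without dog1-1 replicate 3. FTSZ2-2, a plastid division protein gene, fell by 0.66.

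Genes encoded in the plastid itself did not share that direction. Of 69 measured, 5 rose (7.25%) and 1 fell (1.45%), with a median change of 0.12. The risers were psbN at 0.85, ndhJ at 0.71, petN at 0.62, ndhG at 0.61 and rps14 at 0.60, which belong to photosystem II assembly, the NADH dehydrogenase-like complex, the cytochrome b6f complex and the ribosome. psbI, a small photosystem II subunit, fell by 0.41. After hybridization centring the list held 1 rise and 2 falls, the calls of ndhJ, petN, ndhG and rps14 being lost, and it held 3 rises and 0 falls without dog1-1 replicate 3.

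**Figure D4:**
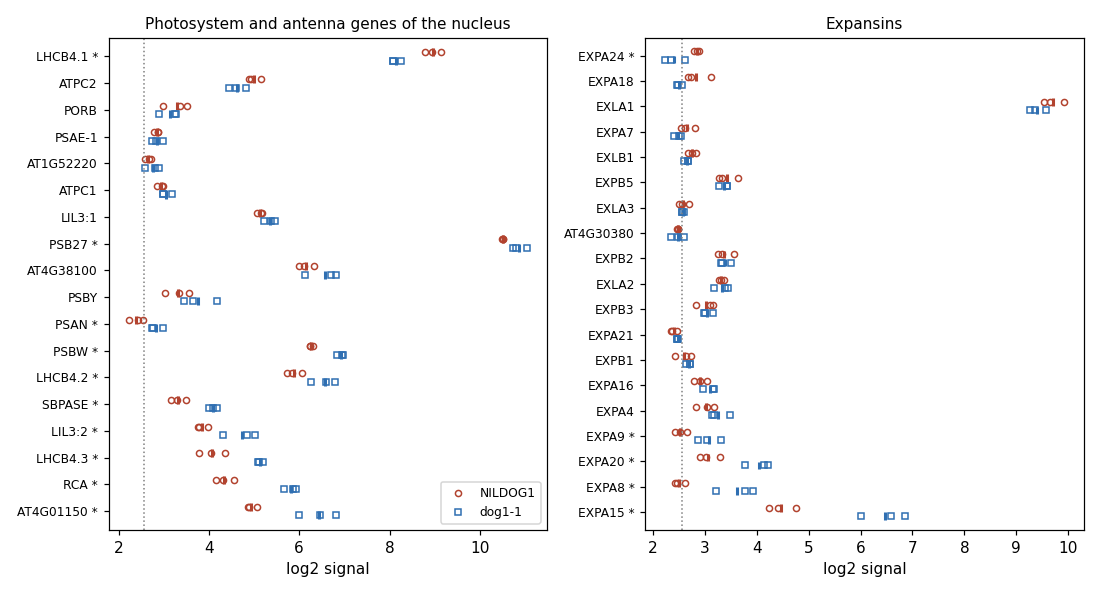
Log2 signals of 18 genes of the nuclear photosystem and antenna list, which also holds RCA, CURT1A and SBPASE (left), and 19 expansins (right), NILDOG1 as red circles above dog1-1 as blue squares, ordered by change, with means, background dotted and an asterisk where the gene passed. LHCB4.1 and EXPA24 are the risers of each list, and CURT1A (AT4G01150), RCA and EXPA15 show the widest gaps with NILDOG1 lower.

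Proteins that loosen and extend the cell wall were, among those that passed, lower in NILDOG1 with a single exception. Of 19 expansins, which let wall polymers slide, 4 fell (21.1%) and 1 rose. EXPA15 (AT2G03090) had 4.23, 4.41 and 4.76 in NILDOG1, against 6.58, 6.0 and 6.85 in dog1-1 (-2.01, SE 0.20, 4.03-fold lower, adjusted p = 3.33e-05). EXPA8 (AT2G40610) had 2.43, 2.63 and 2.47 in NILDOG1, where its mean was at background, against 3.21, 3.77 and 3.93 in dog1-1, at least 2.11-fold lower (adjusted p = 0.000429). EXPA20 fell by 0.98. EXPA9, also at background in NILDOG1, was at least 1.44-fold lower, a call lost without dog1-1 replicate 3. EXPA24 (AT5G39310), the exception, averaged 2.85 ± 0.05 in NILDOG1, against a background level of 2.40 ± 0.19 in dog1-1, at least 1.22-fold higher, a call lost after hybridization centring. The median change of the list was -0.019, near that of all genes.

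Of 10 xyloglucan endotransglucosylases, which cut and rejoin wall xyloglucan, EXGT-A3 (AT2G01850) fell, at 5.92 ± 0.18 in NILDOG1 and 6.89 ± 0.20 in dog1-1 (-0.97, SE 0.14), and so did XTH19 (AT4G30290), with a background level of 2.53 ± 0.10 in NILDOG1 and 3.11 ± 0.33 in dog1-1. The XTH19 call was lost without dog1-1 replicate 3. Among 15 cellulases of family GH9 the falls were GH9B7 (AT1G75680), at 4.16 ± 0.17 in NILDOG1 and 5.26 ± 0.10 in dog1-1, and GH9C2 (AT1G64390), at 3.91 ± 0.17 in NILDOG1 and 4.86 ± 0.38 in dog1-1. COB (AT5G60920), a protein that orients cellulose, was named after its value was seen, and was at 6.25 ± 0.37 in NILDOG1 and 7.96 ± 0.10 in dog1-1 (-1.71, SE 0.17). TBL38 was the 1 of 23 trichome birefringence-like genes that passed, lower by 0.68 in NILDOG1. Of 8 cellulose-synthase-like genes 0 passed, and CSLC5, which makes the xyloglucan backbone, was at 7.30 ± 0.11 in NILDOG1 and 7.54 ± 0.04 in dog1-1.

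The cytoskeleton genes that passed were likewise mostly lower in NILDOG1. All 9 measured tubulins and actins had a change below 0, and 2 of them passed: TUA6 (AT4G14960), at 3.20 ± 0.39 in NILDOG1 and 4.39 ± 0.13 in dog1-1 (-1.19, SE 0.16), and TUB6 (AT5G12250), with a background level of 2.45 ± 0.08 in NILDOG1 and 3.11 ± 0.20 in dog1-1. ATMAP65-6, SPR1, WLIM1 and WLIM2b, which bind microtubules or actin and were named after their values were seen, fell by 1.37, 0.66, 0.72 and 0.77. Among 16 networked actin-binding and myosin genes the directions were mixed. NET1D (AT1G03080) had 3.46, 3.11 and 3.02 in NILDOG1, against 4.81, 5.16 and 5.04 in dog1-1 (-1.81, SE 0.14, adjusted p = 4.43e-06). NET4B (AT2G30500) was at 7.15 ± 0.08 in NILDOG1 and 6.08 ± 0.11 in dog1-1 (1.07, SE 0.093). NET3A was also higher, by 0.46, a call lost without dog1-1 replicate 3 and after hybridization centring. TRM28 (AT5G03670) and TRM21, genes with a motif that recruits the TON1 protein to microtubules, fell by 1.27 and 0.37, of 14 measured, the TRM21 call being lost in the same 2 settings. For TRM28 Ler was near dog1-1, at 6.22 ± 0.26 beside 6.37 ± 0.02, with NILDOG1 at 5.10 ± 0.19.

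Enzymes that cut proteins or release sugars from conjugates showed falls with few rises. Of 29 serine carboxypeptidases, 5 fell (17.2%) and 0 rose. scpl35 (AT5G08260) had 3.82, 4.28 and 4.03 in NILDOG1, against 6.06, 6.84 and 6.98 in dog1-1 (-2.58, SE 0.22, 5.99-fold lower, adjusted p = 9.05e-06). scpl29 (AT4G30810) was at 3.83 ± 0.24 in NILDOG1 and 5.88 ± 0.32 in dog1-1, and scpl26, scpl20 and scpl25 fell by 1.26, 0.56 and 0.52. Among 6 vacuolar and aspartic proteases, CP1 (AT4G36880), a cysteine protease, had 6.75, 7.35 and 6.39 in NILDOG1, against 7.52, 8.23 and 7.97 in dog1-1 (-1.07, SE 0.23, adjusted p = 0.00735). Those groups came close without overlapping, and Ler was lower than either, at 4.88 ± 0.19. APA1 (AT1G11910), an aspartic protease, was at 12.03 ± 0.08 in NILDOG1 and 12.39 ± 0.11 in dog1-1, a call lost without dog1-1 replicate 3 and after hybridization centring. The subtilases ARA12 and SBT1.3 fell by 0.75 and 0.57, of 10 measured.

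Of 22 beta-glucosidases, 5 fell (22.7%) and 1 rose. BGLU44 (AT3G18080) was at 7.11 ± 0.24 in NILDOG1 and 7.84 ± 0.25 in dog1-1, and PYK10 (AT3G09260), the enzyme of endoplasmic reticulum bodies, at 2.80 ± 0.11 in NILDOG1 and 3.67 ± 0.16 in dog1-1. BGLU25 and BGLU16 fell by 0.68 and 0.52, and BGLU46, at background in NILDOG1, was at least 1.29-fold lower. BGLU19 (AT3G21370) was higher, at 12.85 ± 0.07 in NILDOG1 and 12.34 ± 0.17 in dog1-1 (0.52, SE 0.11, adjusted p = 0.00662), until arrays were centred on the hybridization controls.

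UDP-glycosyltransferases, which attach sugars to hormones, flavonoids and foreign molecules, were a list with more rises than falls as deposited. Of 52 measured, 8 rose (15.4%), 5 fell (9.62%) and 39 did not pass; after hybridization centring 4 rose and 6 fell. UGT85A5 (AT1G22370) had 8.82, 8.74 and 8.88 in NILDOG1, against 6.73, 6.71 and 6.69 in dog1-1 (2.11, SE 0.12, 4.3-fold, adjusted p = 3.51e-07). Its neighbours in locus order, which are close copies and may share probes, did not all move alike. UGT85A3 (AT1G22380) had 7.63, 7.45 and 7.77 in NILDOG1, against 6.55, 6.08 and 6.29 in dog1-1 (1.31, SE 0.13, adjusted p = 3.34e-05). UGT85A7 (AT1G22340) had 4.95, 4.71 and 4.98 in NILDOG1, against 5.69, 5.44 and 5.66 in dog1-1 (-0.71, SE 0.12, adjusted p = 0.00123). UGT85A2 (AT1G22360) was between, at 5.08 ± 0.14 in NILDOG1 and 4.67 ± 0.12 in dog1-1.

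UGT72E1 (AT3G50740), of the monolignol pathway, was at 8.41 ± 0.05 in NILDOG1 and 7.17 ± 0.08 in dog1-1 (1.24, SE 0.097), and UGT87A2 (AT2G30140) at 9.08 ± 0.14 in NILDOG1 and 7.94 ± 0.10 in dog1-1 (1.14, SE 0.10). The smaller rises were those of UGT73C7 at 0.62, UGT76E12 at 0.57 and the flavonoid glucosyltransferase UGT78D2 at 0.45. Those 3 calls and that of UGT85A2 were lost after hybridization centring, and without dog1-1 replicate 3 those of UGT73C7, UGT78D2 and UGT85A2. UGT71B1 (AT3G21750) was at 4.02 ± 0.15 in NILDOG1 and 5.03 ± 0.07 in dog1-1. UGT71C3, the flavonol rhamnosyltransferase UGT78D1 and the auxin glucosyltransferase IAGLU fell by 0.63, 0.62 and 0.58.

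Of 20 auxin genes 4 fell (20.0%) and 1 rose. WES1 (AT4G27260), a GH3 enzyme that joins auxin to amino acids, had 4.09, 3.92 and 3.78 in NILDOG1, against 6.02, 6.15 and 6.18 in dog1-1 (-2.19, SE 0.11, 4.56-fold lower, adjusted p = 1.11e-07). Its relative GH3.1 fell by 0.63, and IAGLU by 0.58, and the Aux/IAA family gene IAA33, at background in NILDOG1, was at least 1.42-fold lower. IAA30 (AT3G62100) was at 6.22 ± 0.56 in NILDOG1 and 5.26 ± 0.21 in dog1-1, a rise lost without dog1-1 replicate 3. LBD16 (AT2G42430), an auxin-induced factor named after its value was seen, was at 4.49 ± 0.12 in NILDOG1 and 6.15 ± 0.24 in dog1-1 (-1.66, SE 0.16). Of 6 gibberellin receptor and SLY genes, 0 passed, with 5 of 6 changes above 0 and a median of 0.32. GID1A (AT3G05120), a receptor of the hormone that promotes germination, was at 9.09 ± 0.11 in NILDOG1 and 8.77 ± 0.18 in dog1-1 (adjusted p = 0.0812). Of 6 response regulators, 0 passed.

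Transcription factors and chromatin proteins were called in both directions. Of 24 bZIP factors EEL (AT2G41070), a factor that binds abscisic acid response elements in seeds, had 7.42, 7.70 and 7.59 in NILDOG1, against 8.61, 8.30 and 8.46 in dog1-1 (-0.89, SE 0.11, adjusted p = 0.000193). bZIP44 and bZIP19 fell by 0.63 and 0.44. BZIP53 (AT3G62420), an activator of seed maturation genes, was at 7.72 ± 0.11 in NILDOG1 and 7.26 ± 0.10 in dog1-1 (0.46, SE 0.11, adjusted p = 0.0171), and lost its call without dog1-1 replicate 3 and after hybridization centring. Of 23 bHLH factors SPATULA (SPT, AT4G36930), a regulator of germination, had 2.97, 2.91 and 3.17 in NILDOG1, against 3.82, 3.90 and 4.17 in dog1-1 (-0.95, SE 0.13, adjusted p = 0.00041). PYE, a factor of iron homeostasis, was higher by 1.01 in NILDOG1, while BIM1 and bHLH34 fell by 0.62 and 0.46, both lost without dog1-1 replicate 3.

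WRKY22 (AT4G01250) had 5.86, 5.75 and 5.50 in NILDOG1, against 3.63, 4.77 and 4.31 in dog1-1 (1.47, SE 0.27, adjusted p = 0.00307), the only 1 of 7 WRKY factors to pass. AGL18 was the 1 of 41 MADS-box factors, higher by 0.56 until hybridization centring. The linker histone gene HIS1-3 (AT2G18050), known to respond to drought, had 9.32, 8.95 and 9.40 in NILDOG1, against 7.93, 8.23 and 8.27 in dog1-1 (1.08, SE 0.16, 2.11-fold, adjusted p = 0.000514). The other histone that passed, HTB11, was higher by 0.64 and did not pass without dog1-1 replicate 3 or after hybridization centring. Of 13 chromatin remodelling factors 0 passed, and INO80 was at 7.23 ± 0.04 in NILDOG1 and 7.15 ± 0.13 in dog1-1.

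Calcium and peptide signalling genes that passed all fell in NILDOG1. Of 10 calmodulin-like and calcium-sensing genes 4 fell (40.0%): CML43 (AT5G44460), at 2.98 ± 0.19 in NILDOG1 and 4.16 ± 0.45 in dog1-1, the calreticulin gene CRT1b by 0.76, CML30 by 0.55, and CML38, which was at background in NILDOG1 and at least 1.64-fold lower. The CML38 call was lost without dog1-1 replicate 3. Of 15 IQ-domain genes, whose proteins bind calmodulin, 3 fell. IQD22 (AT4G23060) had 5.33, 5.16 and 4.92 in NILDOG1, against 6.88, 7.02 and 6.90 in dog1-1 (-1.80, SE 0.11, adjusted p = 6.33e-07), and IQD30 and IQD26 fell by 1.03 and 0.57. RALFL34 (AT5G67070), a secreted RALF peptide, had 3.95, 4.0 and 4.01 in NILDOG1, against 5.90, 5.84 and 5.90 in dog1-1 (-1.89, SE 0.093, adjusted p = 1.01e-07). RALFL31 and RALFL33 fell by 0.67 and 0.48, so that 3 of 16 RALF-like and CLE peptides passed, and FER (FERONIA), a receptor of RALF peptides named after its value was seen, fell by 0.58. Of 8 glutamate receptor genes 0 passed.

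Of 15 defensin-like and thionin genes 3 fell. LCR69 (AT2G02100) had 6.17, 6.57 and 6.30 in NILDOG1, against 8.45, 8.82 and 8.66 in dog1-1 (-2.30, SE 0.25, 4.91-fold lower, adjusted p = 6.96e-05). LCR68 (AT2G02130) was at 5.03 ± 0.24 in NILDOG1 and 6.33 ± 0.19 in dog1-1. PDF2.1, at 12.13 ± 0.14 in NILDOG1 and 12.54 ± 0.01 in dog1-1, lost its call without dog1-1 replicate 3.

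Transport and membrane genes were mixed. CHX20 (AT3G53720), a cation and proton exchanger of the endomembranes, had 5.89, 6.10 and 5.95 in NILDOG1, against 4.81, 4.57 and 3.96 in dog1-1 (1.53, SE 0.17, 2.89-fold, adjusted p = 8.24e-05). Of 19 SWEET and tonoplast sugar transporters, SWEET6 (AT1G66770) and SWEET1 rose by 1.02 and 0.66, the second only until hybridization centring, while SAG29 and TMT2 fell by 1.07 and 0.80. TET4 (AT5G60220), a tetraspanin, was at 10.15 ± 0.04 in NILDOG1 and 9.34 ± 0.03 in dog1-1 (0.81, SE 0.089), and its relatives TET8, TET3 and TET7 fell by 0.93, 0.53 and 0.51. Of 23 cytochrome P450 genes CYP84A4 rose by 0.65, CYP71B16, at background in dog1-1, was at least 1.09-fold higher, and CYP78A9 and CYP71B34 fell by 0.79 and 0.78. For CYP78A9 Ler was near dog1-1, at 5.33 ± 0.31 beside 5.17 ± 0.40, with NILDOG1 at 4.38 ± 0.25. The calls of CYP84A4, CYP71B16, CYP78A9, TET3 and TET7 were lost without dog1-1 replicate 3, and both P450 rises also after hybridization centring. In the nitrate and peptide transporter family GTR2, a glucosinolate importer, fell by 0.59, also lost without that array.

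ACLB-1, a subunit of ATP-citrate lyase, fell by 1.30, and SDH2-1, of succinate dehydrogenase, by 0.83, of 14 genes of citrate metabolism. In the breakdown of branched-chain amino acids D2HGDH and IVD fell by 0.85 and 0.64. Named after their values were seen, the glycolytic genes TPI (AT3G55440), GAPC2 (AT1G13440) and PGM (AT1G78050) fell by 0.72, 0.54 and 0.75, and GME and PMM, enzymes on the route to ascorbate, fell by 1.13 and 1.06. PDC2 (AT5G54960), a pyruvate decarboxylase of fermentation, was higher, at 10.78 ± 0.16 in NILDOG1 and 10.28 ± 0.10 in dog1-1, until hybridization centring. The sulfite reductase gene SIR (AT5G04590) was at 9.46 ± 0.05 in NILDOG1 and 8.48 ± 0.04 in dog1-1 (0.97, SE 0.095, adjusted p = 2.5e-05). NDB2, an alternative NADH dehydrogenase, was higher by 0.47, a call lost without dog1-1 replicate 3 and after hybridization centring.

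The storage, oil body and oil mobilisation list gave no call. Of 7 members 0 passed, with changes between -0.38 and 0.17. The isocitrate lyase gene ICL (AT3G21720), which acts when stored oil is used, was at 12.99 ± 0.13 in NILDOG1 and 13.37 ± 0.05 in dog1-1 (adjusted p = 0.0605). OLEO3 (AT5G51210), an oil body protein, was at 9.83 ± 0.03 in NILDOG1 and 9.96 ± 0.15 in dog1-1. A p over the threshold does not show that levels were equal.

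UBP15 (AT1G17110), a deubiquitinating enzyme that promotes organ growth, was at 5.64 ± 0.10 in NILDOG1 and 4.76 ± 0.05 in dog1-1 (0.88, SE 0.11, adjusted p = 0.000164), 1 of 12 ubiquitin-specific proteases. Of 20 U-box and RING ubiquitin ligases ATL5 and LUL1 rose by 0.92 and 0.55. LUL1 (AT5G03200) was at 7.20 ± 0.19 in NILDOG1 and 6.65 ± 0.08 in dog1-1, with Ler at 3.02 ± 0.29, and its call was lost without dog1-1 replicate 3 and after hybridization centring. ATG8B fell by 0.91 among 11 autophagy genes, VPS2.2 and SNF7.2 by 0.45 and 0.43 among 15 ESCRT and sorting genes, and PRA1.H by 0.82 among 11 prenylated RAB acceptors. No member passed among 13 ubiquitin-conjugating enzymes (UBC30 at 10.31 ± 0.07 in NILDOG1 and 10.57 ± 0.11 in dog1-1), 15 organelle RNA editing and PPR proteins, 14 Sm-like and splicing proteins (LSM3B at 9.35 ± 0.30 in NILDOG1 and 8.80 ± 0.39 in dog1-1), 12 subunits of nuclear RNA polymerases, 4 of the vacuolar proton ATPase and 11 exocyst and SEC genes. The markers of other seed tissues had low signals: AGL62 and IKU2 for endosperm were at 2.26 and 3.80 in NILDOG1 and at 2.21 and 3.61 in dog1-1. BAN and DFR for the seed coat were at 2.77 and 2.81 in NILDOG1 and at 2.83 and 2.57 in dog1-1, and none of the 4 passed.

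**Figure D5:**
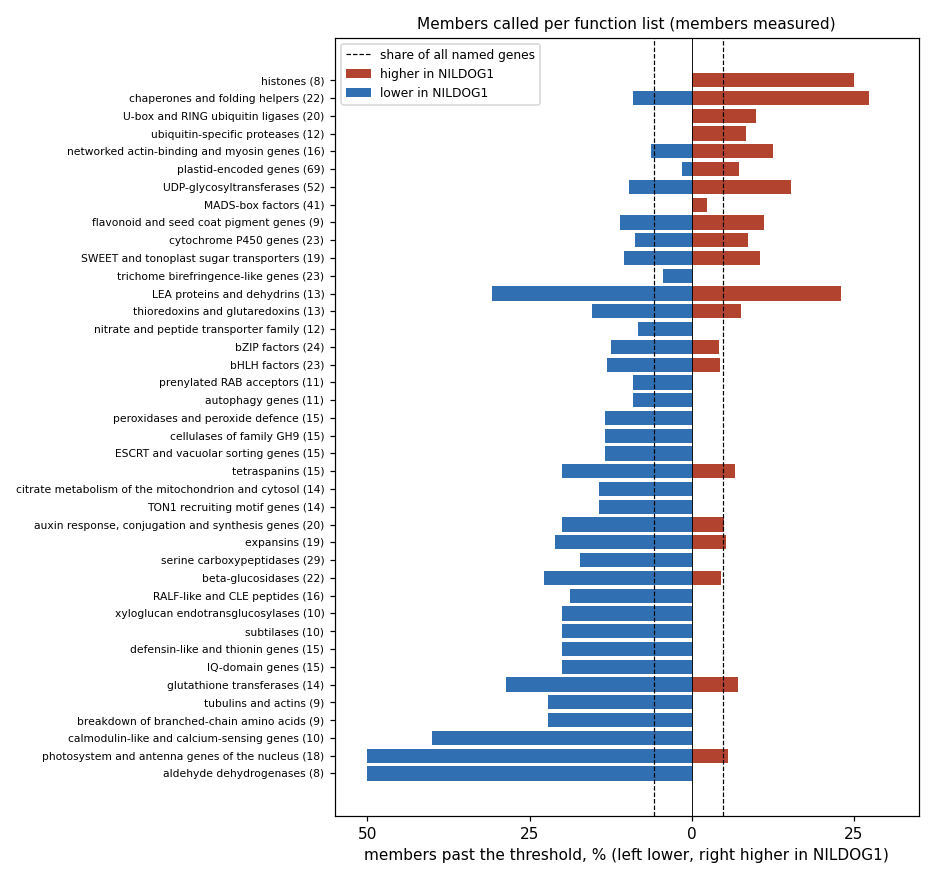
Share of measured members past the threshold in each function list with at least 8 measured genes and a call (percent, red bars to the right for higher in NILDOG1, blue to the left for lower), with dashed lines at 4.78% and 5.81%, the shares of all 13333 genes. Only 1666 of these carry a symbol or description and could enter a list. Aldehyde dehydrogenases and the photosystem and antenna list, which also holds RCA, CURT1A and SBPASE, reach 50% lower, and chaperones 27.3% higher.

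Outside the lists, 80 further genes with a symbol passed, 29 higher and 51 lower. The following were picked after their values were seen. SIM (AT5G04470), an inhibitor of cell division that acts in endoreduplication, was at 6.56 ± 0.13 in NILDOG1 and 8.49 ± 0.19 in dog1-1 (-1.94, SE 0.12, 3.83-fold lower, adjusted p = 6.56e-07). PIA1 (AT2G20630), a PP2C phosphatase, was at 3.97 ± 0.12 in NILDOG1 and 6.25 ± 0.41 in dog1-1 (-2.28, SE 0.20), the opposite direction to the PP2C gene AT2G34740. ALN (AT4G04955), the allantoinase of purine breakdown, was at 2.62 ± 0.13 in NILDOG1 and 3.74 ± 0.71 in dog1-1. Among the rises EULS3 (AT2G39050), a lectin, was at 5.89 ± 0.21 in NILDOG1 and 4.87 ± 0.02 in dog1-1 (1.02, SE 0.12). NGA1, SKP2A, SCL21 and PAHX rose by 0.86, 0.83, 0.78 and 0.71.

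Many of the calls belong to probe sets to which no single gene could be given. Of 9262 such probe sets 482 were higher and 936 lower in NILDOG1, 1418 in all. They include the largest change of the whole comparison, a probe set at 2.78 in NILDOG1 and 9.05 in dog1-1 (-6.27, SE 0.18, adjusted p = 2.8e-09), and one at 9.03 in NILDOG1 and 4.93 in dog1-1 (4.10, SE 0.21). These are not named here, and the functions described above cover only the annotated share of the array.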

How the data were processed

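Affymetrix arrays measured dry seeds of 3 genotypes, 3 bulks each, from biotin-labelled cRNA per the labels' protocols. The values deposited by the authors are RMA-normalized log2 signals per the submitters' processing notes. The version of RMA, the chip definition and the genome build are not given there, and the log base was read from the values. No detection calls or unnormalized intensities were used.

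Probe sets were named from the platform's annotation and matched by locus to a RefSeq gene table of assembly TAIR10.1: 8730 had no entry, 503 had several genes and 13513 had 1, of which 13484 matched, for 13333 loci. A gene with several probe sets (145 loci) takes the probe set whose mean signal is highest. The contrast of NILDOG1 with dog1-1 came from limma 3.58.1 in R 4.3.3 (lmFit, then eBayes, constant prior). The 9 arrays entered 1 model of genotype (6 residual degrees of freedom), so that all genotypes share 1 estimate of the spread. Benjamini-Hochberg adjustment ran over 22746 probe sets with a threshold of 0.05. On simulated data this recovered 37.2% of changes of 0.5, 89.7% of changes of 1 and 99.8% of changes of 2 on the log2 scale, with 8.2 false calls on average. The simulation used independent normal noise and changed far fewer probe sets than passed in the real arrays. Its recovery and its number of false calls therefore need not hold for the results above.

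The comparison, the 60 lists and the rule for named genes were chosen with earlier results of these data known, and the symbol patterns of the lists were rewritten after the annotation was read. The rule names the 12 genes with the largest rise and the 12 with the largest fall that passed and whose arrays did not overlap, with 1 gene per probe set and a mean above background in at least 1 genotype, and for each list up to 2 called members per direction or the one with the highest signal. Symbols come from the gene table, and families of loci without a symbol (such as AT2G34740 and AT5G10120) are background knowledge. Alternatives were the 6 arrays alone, each array left out, replicate numbers as a block, centring on hybridization controls, a further quantile normalization, dim probe sets left out, a prior with an intensity trend, a robust prior and, for lists, the probe set with the largest variance.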

Additional observations from a re-analysis of the deposited data

How the results depend on the processing

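The count of probe sets that differed between NILDOG1 and dog1-1 (2835) ran from 2064 to 3060 when each array was left out in turn, the rises from 765 to 1233 and the falls from 1299 to 1827. Without dog1-1 replicate 3 the counts were the lowest of these. The other settings gave 2504 to 2954 calls: 2688 with the 6 arrays alone, 2954 after quantile normalization, 2885 without dim probe sets, 2799 with an intensity trend and 2812 with a robust prior. Centring on the hybridization controls left 430 rises. All 24 largest changes kept direction and call in every setting run. The labels do not tie the replicate numbers to the growing blocks. After removal of genotype means, arrays of NILDOG1 and dog1-1 with the same number correlated at -0.041, -0.112 and -0.109. With 3 arrays per genotype, these values cannot decide whether the numbers stand for blocks. With the numbers as a block, 2567 probe sets passed (980 higher, 1587 lower), and 14 of 197 called genes did not, among them LTI30, PSB27, PSBW, BIM1, APA1, SNF7.2 and psbI. Calls of 28 genes were lost after hybridization centring, 8 after quantile normalization (bHLH34, psbI, PSBW, RALFL31, RALFL33, SNF7.2, TET7 and TRM21), 13 with the 6 arrays alone and 6 with the trend; the cause was not tested.

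Of the 59 calls that some single array decides, those not already marked include BGLU16, bZIP19, IAGLU, IVD, ndhG, psbI, RALFL31, rps14, SBT1.3, scpl20, UGT78D1 and WLIM1, lost without dog1-1 replicate 3. ALN, GH3.1, GRXC1, GSTL3, IAA33, LHCB4.1, psbN, RALFL33, SNF7.2, SWEET1 and TPI were among those lost without at least 1 other array. Not all of the 59 are named in this text. Conversely AER passed with a trend (0.34, adjusted p = 0.0473), without dog1-1 replicate 1 (0.41, adjusted p = 0.0383) and without Ler replicate 1 (0.34, adjusted p = 0.0425). LSM3B passed without NILDOG1 replicate 2 (0.71, adjusted p = 0.0409) and without dog1-1 replicate 2 (0.76, adjusted p = 0.0156). The changes that turned sign were all uncalled and near 0. INO80 gave -0.10 after hybridization centring and PPR596 0.017 after quantile normalization. With single arrays left out, AT3G58730 ran from -0.13 to 0.085, BAN from -0.17 to 0.047, NRPB6A from -0.14 to 0.094 and PPR596 from -0.25 to 0.11. Of 120 counts of list members, 94 to 120 stayed within 1.5 times in each setting, the fewest without dog1-1 replicate 3 and 95 after hybridization centring. Representing genes by the probe set with the largest variance changed none of the 120 by more. Only 145 of 13333 loci have several probe sets, so that setting could hardly change the counts. Signal limits the rest: 4383 probe sets were at background in both genotypes.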
